A study of Mus musculus with 474 samples.

Results

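In all, 10 genes that mark white adipocytes were followed in skeletal muscle RNA, namely Adipoq, Lep, Plin1, Cidec, Cfd, Retn, Fabp4, Adrb3, Pck1 and Pparg, which are 10 of the 20612 genes in the deposited table. They were chosen by gene symbol. All 10 passed the filter on low counts that 18823 genes passed. The RNA came from the gastrocnemius of adult Diversity Outbred mice, an outbred stock that descends from inbred founder strains, so that each animal carries its own mosaic of founder genomes. Every animal was fed a high-fat, high-sugar diet (45percent fat per the labels) and gave 1 library. By their titles the animals belong to generations 17, 18, 19, 21 and 23, with 48, 45, 49, 46 and 47 females and 46, 48, 50, 47 and 48 males, where reading that number as the outbred generation is an assumption, since the study's methods name generations 18, 19 and 21 and neither 17 nor 23. No lean-diet or inbred group was part of these samples, so that the comparisons were between the sexes, between generations and between genes across animals.

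White adipocytes store triglyceride in a single large droplet and release hormones, the adipokines, of which adiponectin and leptin are the best known. Leptin rises with fat stores and acts on the brain to restrain feeding, and adiponectin tends to be lower in obesity. In skeletal muscle most of these genes serve as marks of the adipocytes that lie between fibers and bundles, because the muscle fiber itself makes little of their products. They are not exclusive to white adipocytes. Fabp4 is also made by capillary cells and macrophages, and Pck1 by liver and kidney. In these samples the genes other than Lep also followed Ucp1, the uncoupling protein of brown fat. In RNA from whole tissue, fewer adipocytes and less RNA per adipocyte cannot be told apart.

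Library totals ran from 35.9 to 165.7 M expected counts, with a median of 79.31 M. The tissue label matched its markers: 6 of 6 fiber genes were present at a summed level of 83300 to 176000 CPM (counts scaled to a library size of 1 M) in females and 92800 to 162000 in males. In 5 libraries (3 labelled female, 2 labelled male) RNA of the sex chromosomes went against the label, and leaving them out kept the call and the direction of every sex difference of the 10 genes. Titles also carry a running number that was taken for that of the library. Its runs without a gap over 3 were cut every 96 numbers, which gave 5 blocks of 91 to 96 libraries with 43 to 54 females each. A gap set the border between blocks 1 and 2 alone, and the cut set the other borders. The blocks may be plates, although the labels do not say so. For block itself, 0 of the 10 genes passed the threshold of an adjusted p under 0.05 in edgeR's quasi-likelihood test (adjusted p 0.106 to 0.686, and 0 at an unadjusted p under 0.05), where 47.4% of all genes tested did.

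The promoters of Lep, Adipoq and Cfd are shown because the comparisons turn on these 3 adipokine genes: Lep was the gene higher in males, Adipoq was used as a covariate, and Cfd was the gene with no detected relation to Lep. Each is the 250 bases before the RefSeq start in build GRCm38.p6, read along the gene, and capitals mark matches to searched motifs.
Lep, chr6:29059971-29060220, plus strand: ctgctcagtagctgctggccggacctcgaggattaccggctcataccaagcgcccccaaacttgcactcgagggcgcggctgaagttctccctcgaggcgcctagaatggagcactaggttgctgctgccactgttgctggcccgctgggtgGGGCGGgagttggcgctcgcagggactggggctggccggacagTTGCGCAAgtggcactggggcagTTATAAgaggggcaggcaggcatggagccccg
Adipoq, chr16:23146286-23146535, plus strand: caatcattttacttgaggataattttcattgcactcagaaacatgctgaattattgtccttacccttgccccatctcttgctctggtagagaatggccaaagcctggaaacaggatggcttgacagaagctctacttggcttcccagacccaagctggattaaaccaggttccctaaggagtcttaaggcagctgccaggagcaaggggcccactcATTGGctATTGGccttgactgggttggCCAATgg
Cfd, chr10:79890603-79890852, plus strand: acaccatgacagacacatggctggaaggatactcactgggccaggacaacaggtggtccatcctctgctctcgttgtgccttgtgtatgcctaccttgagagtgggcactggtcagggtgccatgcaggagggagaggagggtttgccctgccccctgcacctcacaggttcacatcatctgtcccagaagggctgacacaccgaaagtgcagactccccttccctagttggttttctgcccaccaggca
The letters of 6 motifs were searched on both strands and set against 32851 RefSeq promoters of the same length. Of these, 22.78% held TATAA, which lies near many start sites, 33.85% held CCAAT, 32.74% held GGGCGG, a GC box, 0.16% held TTGCGCAA, a binding core of the C/EBP factors, 14.02% held AGGTCA, the hexamer of nuclear receptors, and 6.02% held CACGTG, an E-box. The Lep promoter held TATAA at 31 to 27 bases before the start (overlapped by its reverse match at 32 to 28), TTGCGCAA at 55 to 48 and GGGCGG at 98 to 93. The Adipoq promoter held CCAAT 3 times, at 34 to 30 and 27 to 23 on the opposite strand and at 7 to 3 on the same strand. In the Cfd window none of the 6 motifs was found. Promoter sequences were matched for 8 of the 10 genes, and those of Fabp4 and Adrb3 were not matched.

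All 10 genes were detected in every library, and their levels spread widely between animals. Adrb3, the beta-3 adrenergic receptor through which catecholamines start lipolysis in fat, spread the most, with a 54.8-fold distance between the 5th and the 95th percentile of all libraries. Pck1, the enzyme that supplies glycerol for storing fat in adipocytes, spread 34.2-fold and Lep 30.4-fold. Fabp4, a fatty acid carrier that capillary cells and macrophages also make, spread 3.49-fold, and Pparg, the nuclear receptor that directs adipocyte formation, 3.06-fold. The lowest library had 85 counts for Adipoq and 6 for Lep. Adrb3 had 26 libraries under 10 counts and a lowest of 2, so that the low end of its spread carries counting error, while each of the other 9 genes had at most 2 such libraries. Per kilobase of the longest coding transcript, the median order was Fabp4, Cfd, Adipoq, Cidec, Pck1, Plin1, Retn, Lep, Pparg and Adrb3. Fabp4 lay above Cfd in 100% of libraries and Pparg above Adrb3 in 96.4%. Cidec and Pck1 were not separated, with Cidec higher in 52.7% of libraries, nor were Lep and Pparg, with Lep higher in 54.9%.

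The first comparison asked how the genes differed between females and males. Of the 10 genes, 9 were lower in males and Lep was higher. Lep lies on chromosome 6, 29060220 to 29073877 (ENSMUSG00000059201, GRCm38). In females Lep ran from 0.0588 through a median of 5.10 to 97.2 CPM, and in males from 0.190 through 7.91 to 75.7 CPM. The groups overlapped, and 66.5% of males lay above the female median. The difference was 0.55 on the log2 scale (male minus female, SE 0.132, adjusted p = 0.000111, edgeR quasi-likelihood test with Benjamini-Hochberg adjustment over all genes tested). Over all genes, 55.0% passed that threshold, 24.4% higher and 30.6% lower in males, so that a call alone did not set these 10 genes apart.

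The other 3 adipokine genes were lower in males. Cfd encodes complement factor D, also called adipsin, and lies on chromosome 10, 79890853 to 79892655 (ENSMUSG00000061780). Cfd had a lowest level of 4.52 CPM, a median of 36.4 CPM and a 95th percentile of 134 CPM in females, and 1.09, 16.4 and 55.5 CPM in males. The sexes overlapped, but 13.4% of males lay above the female median and 27 females lay above every male. The log2 difference was -1.24 (SE 0.0989, adjusted p = 8.48e-30, edgeR). Retn, which encodes the hormone resistin (chromosome 8, 3655770 to 3660110), had a median of 4.55 CPM in females (0.497 to 44.0) and 2.19 CPM in males (0.0799 to 13.0), a log2 difference of -1.06 (SE 0.0939, adjusted p = 6.49e-25, edgeR). Sex took 24.4% of the variance of the Cfd score and 19.7% of that of Retn, against 3.4% for Lep. Adipoq, the gene of adiponectin (chromosome 16, 23146536 to 23158028), had medians of 18.4 CPM in females (2.35 to 94.6) and 13.0 CPM in males (1.13 to 70.2), with a log2 difference of -0.54 (SE 0.0865, adjusted p = 6.89e-09, edgeR).

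The droplet genes were lower in males by amounts like that of Adipoq. Plin1, which coats the lipid droplet and gates lipolysis, had medians of 15.2 CPM in females (1.84 to 122.1) and 11.6 CPM in males (1.42 to 64.2), which overlapped (log2 -0.55, SE 0.0925, adjusted p = 3.67e-08, edgeR). Cidec, which helps droplets merge, had medians of 12.8 CPM in females (1.78 to 88.4) and 9.77 CPM in males (1.41 to 50.9), with 33.5% of males above the female median (log2 -0.49, SE 0.0922, adjusted p = 7.18e-07, edgeR). With a further covariate for Ucp1, the uncoupling protein of brown fat, neither passed (-0.12, adjusted p = 0.213 for Plin1 and -0.11, adjusted p = 0.295 for Cidec). That covariate left Lep at 0.51 and brought Adipoq to -0.24 (adjusted p = 0.0091), Cfd to -0.82, Retn to -0.70, Adrb3 to -0.92 and Pck1 to -0.33 (adjusted p = 0.00147), all past the threshold. Ucp1 itself had medians of 0.181 CPM in females and 0.0447 CPM in males, with highest libraries at 203 and 76.5 CPM.

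Adrb3 gave the largest log2 difference of the 10, -1.68 (SE 0.144, adjusted p = 2.73e-26, edgeR), from a median of 1.40 CPM in females (0.0524 to 24.3) to 0.492 CPM in males (0.0276 to 8.99). Adrb3 overlaps the gene model Gm45470, and use of strand in the counting was not given in the sources used here, so that reads of both could not be separated. Pck1 had a median of 20.6 CPM in females (2.05 to 291.9) and of 12.5 CPM in males (1.05 to 226.7), a log2 difference of -1.15 (SE 0.132, adjusted p = 1e-15, edgeR). Pck1 is also made in liver and kidney, and Alb, the liver gene on the marker list that the table holds, had medians of 0.189 CPM in females and 0.142 CPM in males and highest libraries of 763 and 19.8 CPM. The part of such RNA in the Pck1 values was not tested.

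Fabp4 and Pparg moved little. Fabp4 had medians of 150.1 CPM in females (76.3 to 677.2) and 152.4 CPM in males (84.7 to 484.6), and its fitted log2 difference was -0.14 (SE 0.0524, adjusted p = 0.0146, edgeR). Pparg had medians of 3.68 CPM in females (1.77 to 13.9) and 3.66 CPM in males (1.80 to 9.52) and a log2 difference of -0.15 (SE 0.0454, adjusted p = 0.00281, edgeR), and it overlaps the gene model Gm44079. The call of Fabp4 was lost in limma on the deposited scores (adjusted p = 0.18) and on rank normal scores (adjusted p = 0.616), and with Ucp1 as covariate its sign turned (0.14, adjusted p = 0.00282). The call of Pparg was lost in limma on rank normal scores (adjusted p = 0.113), and with Ucp1 as covariate its sign turned (0.06, adjusted p = 0.209).

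**Figure D1:**
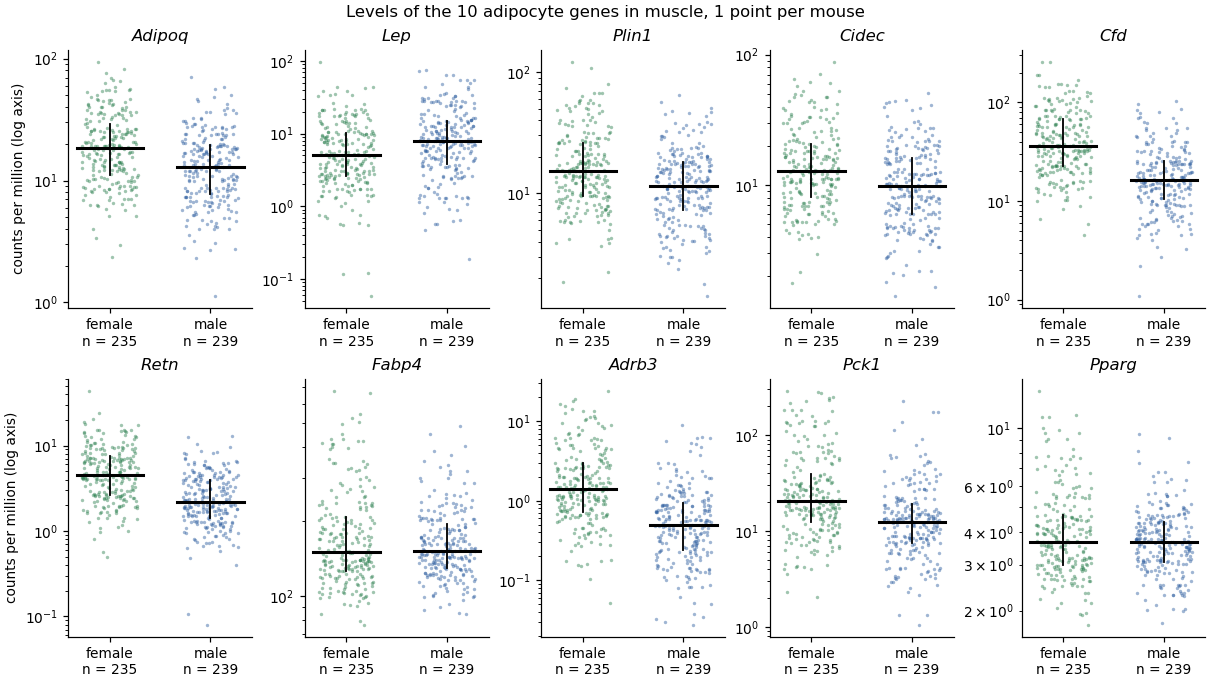
Levels of the 10 genes in CPM on log axes, with 1 point per mouse for females and for males, the horizontal bar at the median and the vertical bar from the first to the third quartile. The male median lies above the female median for Lep (7.91 against 5.10 CPM) and well below it for Cfd, Retn, Adrb3 and Pck1, and the sexes overlap in every gene.

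Within the blocks of libraries the sex difference was steady for some genes and not for others. Cfd, Retn and Adrb3 passed in 5 of 5 blocks and in 5 of 5 generations, and Pck1 in 4 of 5 blocks and 5 of 5 generations, where 19.7%, 22.7%, 24.4%, 28.6% and 23.2% of all genes passed in the blocks in order and 22.7%, 23.4%, 20.6%, 24.8% and 25.3% in the generations. Adipoq, Plin1 and Cidec were lower in males in 5 of 5 blocks and passed in 2 of them. Pparg passed in 2 of 5 blocks and 2 of 5 generations, and Fabp4 in 2 of 5 blocks and 0 of 5 generations. The Lep difference was 0.70 in block 1, 1.53 in block 2, -0.19 in block 3, 0.07 in block 4 and 0.88 in block 5. It passed in block 2 alone (adjusted p = 0.00015, edgeR) and pointed the other way in block 3 (SE 0.321, adjusted p = 0.734). Within generations it was positive in 5 of 5, from 0.08 to 0.85, and passed in 2. In a test of the difference between blocks, 0 of the 10 genes passed after adjustment (lowest adjusted p = 0.0679, for Lep, edgeR) where 0.452% of all genes passed, and 5 had an unadjusted p under 0.05, as did 1564 of the 18823 genes.

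The second comparison asked how the sexes differed at the same level of Adipoq, with the log2 CPM of Adipoq as a covariate. Lep then stood further apart. Its difference was 0.95 (SE 0.105, adjusted p = 6.53e-17, edgeR), and 0.87 (adjusted p = 6.91e-15) with Plin1 and 0.77 (adjusted p = 8.28e-13) with Cidec in place of Adipoq, where 51.8% and 51.6% of all genes passed. It was called in 5 of 5 blocks (0.69 to 1.33), block 3 included (0.76, adjusted p = 0.0158), and in 4 of 5 generations (0.62 to 1.26), where 17.1%, 23%, 19.6%, 20.3% and 20.5% of all genes were called in the blocks in order and 17.7%, 19.3%, 19.4%, 22.7% and 23.3% in the generations. In blocks 3 and 4 Lep without the covariate did not pass (-0.19 and 0.07), while Adipoq passed as lower in males (-0.9993 and -0.8912). The calls of Lep at a given Adipoq there thus went with lower Adipoq, not with a detected difference in Lep itself. In block 2 Lep itself passed (1.53) and Adipoq did not (-0.1941), and in blocks 1 and 5 neither passed. The raw levels of the same genes in the same libraries restate the higher Lep at a given Adipoq and are not a separate test. The ratio of Lep to Adipoq, each per kilobase, had a median of 0.118 in females (0.00164 to 0.790) and 0.265 in males (0.0141 to 0.973), and 84.9% of males lay above the female median.

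In that fit 7 of the 9 genes other than Adipoq passed, Lep included, 3 higher and 4 lower in males, against 24.5% of all genes higher, 26.7% lower and 51.3% in all. Plin1 (0.03, SE 0.0368, adjusted p = 0.463) and Cidec (0.04, SE 0.0366, adjusted p = 0.401) did not pass, although Plin1 passed with Ucp1 as a further covariate (0.09, adjusted p = 0.0256) and Cidec passed in generation 19 (0.19, adjusted p = 0.0373). Cfd (-0.74, adjusted p = 1.19e-20), Retn (-0.58, adjusted p = 1.41e-18), Adrb3 (-0.91, adjusted p = 3.47e-18) and Pck1 (-0.35, adjusted p = 1.03e-05) stayed lower in males, although Pck1 passed in 2 of 5 blocks and 1 of 5 generations. Fabp4 (0.17, adjusted p = 4.25e-08) and Pparg (0.08, adjusted p = 0.0315) were higher, and the call of Pparg was lost with scaling by total count alone (adjusted p = 0.149). Fabp4 passed in 2 of 5 blocks and 3 of 5 generations, and Pparg in 0 of 5 blocks and 1 of 5 generations, with a difference of -0.09 in generation 18. With Plin1 or Cidec in place of Adipoq, Pparg did not pass (adjusted p = 0.0618 and 0.0545, edgeR), while Cfd, Retn, Adrb3, Pck1 and Fabp4 did. In those fits Adipoq was lower in males (-0.11, adjusted p = 0.00471, and -0.12, adjusted p = 0.00132, edgeR). The ratio of Cfd to Adipoq per kilobase had medians of 3.21 in females and 2.06 in males, and 16.3% of males lay above the female median.

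**Figure D2:**
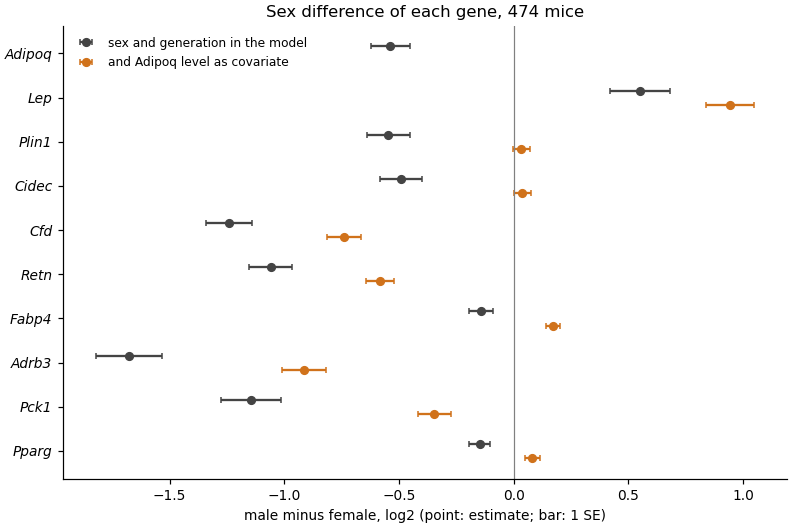
Male minus female log2 difference of each gene over all mice, as a point with a bar of 1 SE, with sex and generation in the model and with the level of Adipoq added (not drawn for Adipoq itself). With the covariate, Lep moves from 0.55 to 0.95, Plin1 and Cidec move to about 0, and Cfd, Retn, Adrb3 and Pck1 move toward 0 but stay negative.

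**Figure D3:**
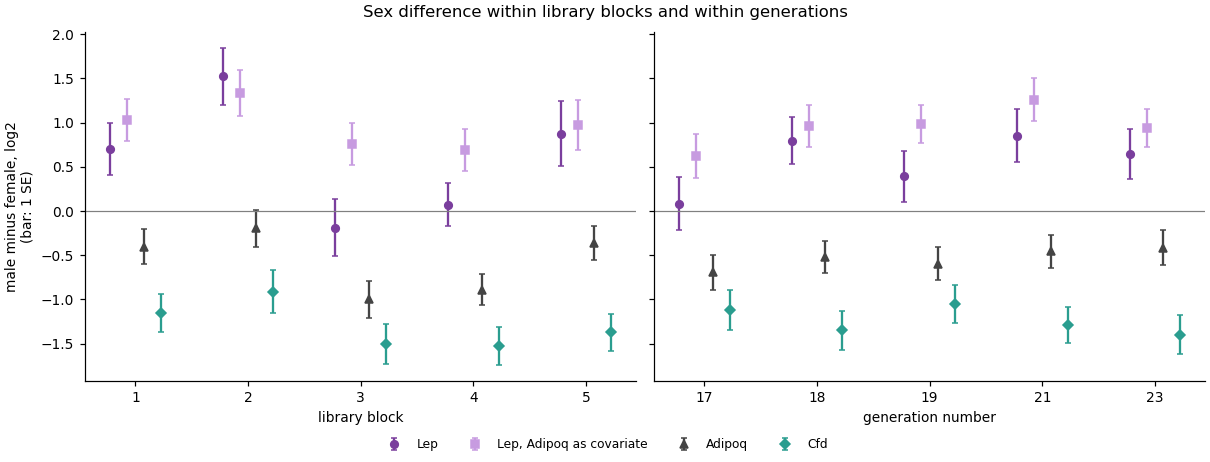
Male minus female log2 difference within each of the 5 library blocks (left) and generations (right), with bars of 1 SE, for Lep, Lep with Adipoq as covariate, Adipoq and Cfd. Lep without the covariate varies from -0.19 to 1.53 between blocks, Lep with the Adipoq covariate stays between 0.69 and 1.33, and Cfd stays below 0 throughout.

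Between generations 3 of the 10 genes passed (edgeR, 4 coefficients), where 7.56% of all genes did. Lep had medians of 6.07, 5.52, 6.30, 6.92 and 9.10 CPM in generations 17, 18, 19, 21 and 23, and its fitted generations spanned 0.86 on the log2 scale (adjusted p = 0.0226). Adipoq had medians of 12.8, 13.5, 16.7, 14.7 and 19.1 CPM (span 0.49, adjusted p = 0.037). Plin1 spanned 0.51 (adjusted p = 0.0253). In limma on the deposited scores the calls of Lep (adjusted p = 0.0673) and Adipoq (adjusted p = 0.0793) were lost, and on rank normal scores those of Lep (0.0652), Adipoq (0.101) and Plin1 (0.0547). Of the 10 other white adipocyte markers 5 passed between generations, and of the 12 other droplet genes 3. Plin4 and Aqp7 are on both lists and passed, so that they were counted in both. Markers of other cells moved with generation too: 4 of 8 macrophage markers passed, 4 of 5 erythroid markers, and Alb (adjusted p = 2.71e-50, edgeR), and the part of these other cells in the generation differences was not tested. For Lep, Adipoq and Plin1, generation 23 had the highest median and the highest fitted level, and the generations overlapped. The sex difference itself did not vary detectably with generation: 0 of the 10 genes passed the interaction test in edgeR (adjusted p 0.979 to 1) or in limma, and 0 had an unadjusted p under 0.05 in either, where 0.531% of all genes passed in edgeR.

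The third comparison was between the genes across animals, on the deposited variance-stabilized score (VST, close to log2) after removing sex and generation. Each point is 1 mouse, and the genes of a mouse share its library and its scaling. Among the 36 pairs without Lep, Pearson r ran from 0.553 to 0.925 with a median of 0.769. Adipoq, Plin1 and Cidec moved almost as a unit (0.917 to 0.925). For the 9 pairs with Lep the median was 0.397. In each of the 5 blocks and of the 5 generations the median for Lep (0.232 to 0.498) lay below that for the other pairs (0.734 to 0.818). Of the 45 pairs, 44 passed a permutation test of 100000 resamples adjusted over the pairs, for Pearson r and for Spearman rho alike.

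The genes split in how they followed Lep. The droplet genes and Adipoq followed it most, with r = 0.603 and rho = 0.611 for Cidec, r = 0.593 and rho = 0.618 for Plin1, and r = 0.589 and rho = 0.588 for Adipoq (permutation p = 1e-05 for each, the smallest that the resamples can give, adjusted p = 1.05e-05). Fabp4 (r = 0.409) and Pparg (r = 0.397) came next, then Retn (r = 0.274) and Pck1 (r = 0.264). Adrb3 was close to unrelated (r = 0.102, rho = 0.134, permutation p = 0.0262, adjusted p = 0.0268), with r from -0.00576 to 0.245 within blocks. Cfd showed no detected relation to Lep (r = -0.0234, rho = -0.0198, permutation p = 0.612, adjusted p = 0.612), with r from -0.144 to 0.0755 within blocks, while Cfd and Adipoq had r = 0.67. Without removing sex and generation r was 0.0245 for Adrb3, which then did not pass at an unadjusted p under 0.05, and -0.0946 for Cfd, which did. Within females (0.0944) and within males (0.125) Adrb3 did not pass. Leaving out the 2 mice farthest from the median of Lep gave 0.592 for Cidec, 0.584 for Plin1, 0.108 for Adrb3 and -0.0253 for Cfd, and leaving out the 2 farthest on Adipoq gave 0.584 for Lep and Adipoq.

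**Figure D4:**
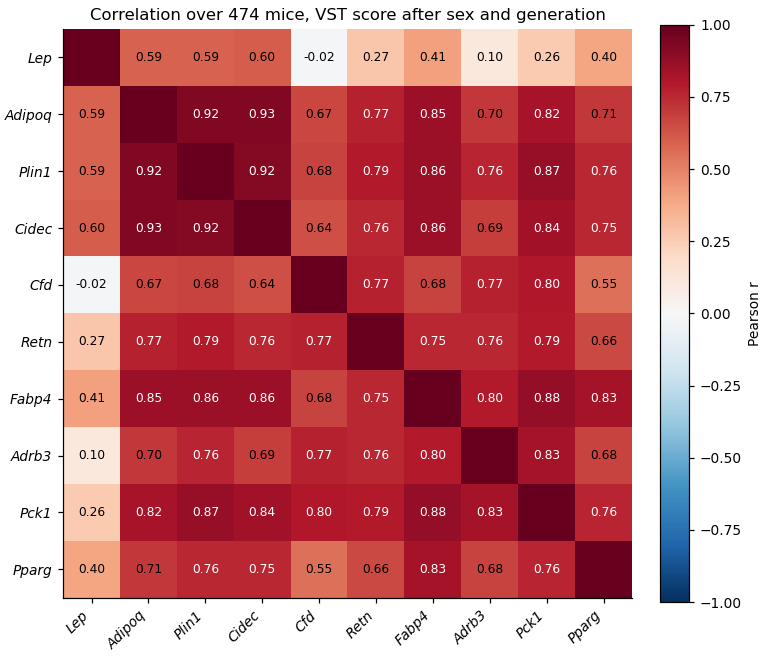
Pearson r between the 10 genes over all mice, on the VST score after removing sex and generation, with blue for negative and red for positive values. The row of Lep runs from -0.02 with Cfd to 0.60 with Cidec, and the other 36 pairs run from 0.553 to 0.925.

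At a given level of Adipoq, Lep ran against several of the other genes. With Adipoq also removed, Lep and Cfd had r = -0.697 over all mice, from -0.803 to -0.637 within blocks, -0.698 in females and -0.687 in males. Lep was likewise negative against Adrb3 (-0.547), Pck1 (-0.487) and Retn (-0.347), and near 0 against Pparg (-0.0363, from -0.187 to 0.107 within blocks). Against Fabp4 it was -0.221, with -0.301 in females and -0.0529 in males. Against Plin1 it was 0.157, from -0.0816 to 0.437 within blocks, and against Cidec 0.188, with -0.0665 in females and 0.493 in males. These values are descriptions without a test. The genes also climbed at different rates with Adipoq: a log2 step in Adipoq went with 1.16 log2 in Pck1 (SE 0.036), 1.07 in Adrb3 (SE 0.0505), 0.97 in Plin1 (SE 0.0183), 0.90 in Lep (SE 0.0595), 0.47 in Fabp4 (SE 0.0141) and 0.34 in Pparg (SE 0.0163).

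The correlation of Lep was higher in males with 7 of the other 9 genes, and for Cfd (difference 0.0526, permutation p = 0.581, adjusted p = 0.654) and Adrb3 (difference 0.0301, permutation p = 0.733, adjusted p = 0.733) no difference was detected. Lep and Cidec had r = 0.768 in males and 0.430 in females, a difference of 0.339 (permutation of sex within generation, p = 1e-05, the smallest possible, adjusted p = 9e-05 over 9 pairs). For Lep and Adipoq the values were 0.684 and 0.488 (difference 0.195, permutation p = 0.00259, adjusted p = 0.00706). Among the other genes the opposite held as a description, with a median r of 0.71 in males and 0.823 in females and a lower r in males in 34 of 36 pairs.

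**Figure D5:**
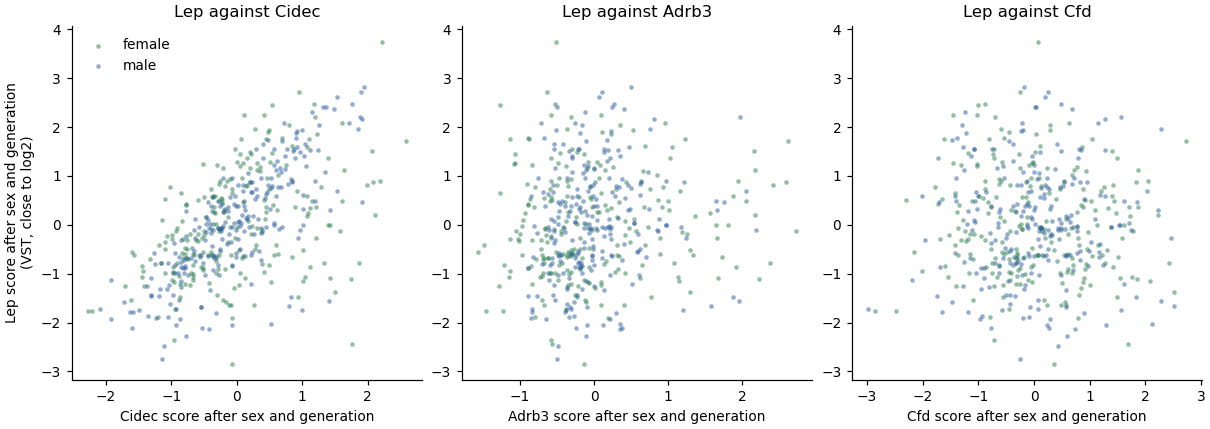
Lep score against the scores of Cidec, Adrb3 and Cfd after removing sex and generation, 1 point per mouse, females in green and males in blue. Lep climbs with Cidec (r = 0.603), more tightly in males, and follows Adrb3 weakly (r = 0.102) and Cfd not detectably (r = -0.0234).

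Among 18822 other genes, those most like Lep on this score were not the classical markers. Fads3 came first (r = 0.814), then Prr32 (0.775), 1700047G03Rik (0.773), Sncg (0.75), Tenm4 (0.73), Slc6a13 (0.725), Slc5a7 (0.723), Ptger3 (0.716), Npr3 (0.709) and Crtac1 (0.704). Within blocks these 10 ranged from 0.602 to 0.875. Several lay at very low levels, with medians of 0.0293 CPM for Slc5a7, 0.0394 CPM for 1700047G03Rik, 0.226 CPM for Crtac1 and 0.254 CPM for Prr32. Cidec ranked 28, Plin1 32, Adipoq 33, Fabp4 126, Pparg 136, Pck1 390, Adrb3 2546 and Cfd 10866, with Retn (r = 0.274) between Pparg and Pck1. For Adipoq the order was Cidec (0.925), Plin1 (0.924), Scd1 (0.893), Prkar2b (0.884), Slc7a10 (0.884), Tshr (0.871), Smoc1 (0.867), Aoc3 (0.861), Trarg1 (0.861) and Tenm4 (0.857), with Lep at rank 133. The most negative genes for Lep were Zfp661 (-0.363), Tpt1 (-0.359), Rpl26 (-0.353), Oxct1 (-0.352) and Eef1b2 (-0.347). Over all genes r ran from -0.166 to 0.182 for Lep and from -0.187 to 0.311 for Adipoq between the 5th and the 95th percentile.

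Lists of related genes, counted without the 10, put these values in context beside 24.4% higher and 30.6% lower in males over all genes and a median log2 difference of -0.0139. Of 12 other droplet and lipolysis genes, 7 were lower and 2 higher in males (median -0.10), among them Plin4 (-0.41) and the droplet regulator G0s2 (-0.45). Of 20 genes of fat uptake and triglyceride synthesis, 12 were lower and 2 higher (median -0.16), with Elovl6 (-1.58), Fasn (-1.25) and Acaca (-0.58), which build fatty acids, lower and Me1 (0.25) higher. Of 8 other secreted factors, 2 were lower and 4 higher (median 0.05), with Rbp4 at -0.45 and Nampt at 0.17. Of 11 other adipocyte transcription factors, 5 were lower and 4 higher, with Cebpa at -0.54 and Srebf1 at 0.40. Of 11 receptors and signal partners, 2 were lower and 4 higher. Lepr, the leptin receptor, was lower in males (-0.39, adjusted p = 1.27e-27, edgeR), and Socs3, which damps leptin signals, was higher (1.86, adjusted p = 9.27e-33, edgeR), with medians of 1.92 CPM in females and 2.5 CPM in males and means of 2.37 and 9.60 CPM. Of 9 brown fat genes, 5 were lower and 4 higher, with Ucp1 at -3.79 and Dio2 at -0.49. Cidea was at -1.20, although its median was 0.846 CPM in females and 0.976 CPM in males.

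Markers of other cell types moved with Adipoq and Lep to different degrees. Other white adipocyte markers were lower in males in 8 of 10 and higher in 1 (median -0.42). Among these markers Plin4, Lipe, Aqp7, Cebpa and Thrsp are also on the lists of related genes above. Gene by gene on the deposited score their median r was 0.818 with Adipoq and 0.322 with Lep, and their summed level had r = 0.253 and 0.122. By median level most of that sum was Plin4, which had r = 0.0842 with Adipoq, so that the sum mainly describes this gene. The summed level of 8 macrophage markers ran from 35.9 to 117 CPM in females and from 27.2 to 128 CPM in males, with 1 higher and 1 lower in males, and it had r = 0.41 with Adipoq (rho = 0.411, permutation p = 1e-05, the smallest possible, adjusted p = 3.2e-05 over 16 relations, 0.41 without the 2 farthest mice) and r = 0.134 with Lep (rho = 0.149, permutation p = 0.0037, adjusted p = 0.0075). Muscle fiber markers (3 higher and 1 lower of 6) had r = -0.209 with Adipoq and -0.133 with Lep in their sum. Of 8 fibro-adipogenic progenitor markers 5 were lower and 1 higher, of 6 endothelial markers 1 was lower and 5 were higher, of 5 Schwann cell markers 2 were lower, and of 5 erythroid markers 3 were higher in males. The sums of these 4 lists had r of 0.0793 to 0.143 with Adipoq and of 0.0796 to 0.118 with Lep. Of 6 liver and kidney markers the table held Alb, which was lower in males (-0.83, adjusted p = 0.00132, edgeR). As a summed level, like the lists above, Alb had r = 0.481 with Adipoq (rho = 0.564) and 0.38 with Lep (rho = 0.425, permutation p = 1e-05, adjusted p = 3.2e-05 for both), and 0.539 and 0.398 without the 2 farthest mice. On the deposited score Alb had r = 0.316 with Adipoq and 0.263 with Lep. No marker in the table had a median of 0. The part of these cells in the sex differences was not tested.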

How the data were processed

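Polyadenylated RNA was sequenced, 1 library per mouse. The authors joined both mates of a read pair, aligned them to a transcriptome of the 8 founder strains and deposited expected counts per gene from the EMASE algorithm (GBRS), so that a fragment can add 2 ends. The authors also deposited a VST score made with DESeq2. Their methods describe a regression on batch, and whether the score includes it was not given in the sources used here. The build was GRCm38, and versions were not given in the sources used here. Expected counts were rounded and tested with edgeR 4.0.16 (TMM scaling, filterByExpr with a minimum count of 10, quasi-likelihood test, Benjamini-Hochberg adjustment over 18823 genes, threshold 0.05), with sex and generation in the model. Wave, a covariate of the study, was not in the labels and was not fitted. Levels are CPM, and the log2 CPM covariate used a prior count of 2. Correlations used the VST score. Alternatives used DESeq2 1.42.0 and limma 3.58.1. Ucp1 as covariate (log2 of CPM plus 0.05), the fits by block with Adipoq as covariate, the sex-by-block test and the test of correlations between the sexes were chosen after seeing the data. The 10 genes and all lists were chosen with earlier results of these data known. Besides the 10 genes, the text names the 10 genes most like Lep and Adipoq, the 5 least like Lep, and from each list at most 6 genes with the lowest p between the sexes. No 2 libraries of a group agreed within counting noise. The fits were tested on simulated data. In the deposited matrices 2 pairs of columns stood in another order than the sample list, and column names were used. Gene and promoter positions came from the files, GENCODE M21 and RefSeq.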

Additional observations from a re-analysis of the deposited data

Results flagged for a closer look

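The correlation of Lep with 7 of the other 9 genes differed between the sexes when sex labels were permuted within generation (100000 resamples, adjusted over 9 pairs). In males minus females, r was higher by 0.339 for Cidec (adjusted p = 9e-05), 0.254 for Fabp4 (adjusted p = 0.00549), 0.195 for Adipoq (adjusted p = 0.00706), 0.186 for Plin1 (adjusted p = 0.00706), 0.216 for Pparg (adjusted p = 0.00887), 0.241 for Pck1 (adjusted p = 0.0101) and 0.181 for Retn (adjusted p = 0.0493). The difference was 0.0526 for Cfd (adjusted p = 0.654) and 0.0301 for Adrb3 (adjusted p = 0.733). It was positive in 5 of 5 library blocks for Cidec (0.200 to 0.722), Adipoq (0.0723 to 0.570), Plin1 (0.0596 to 0.441) and Pparg (0.0444 to 0.660), in 4 of 5 for Fabp4 and Pck1, and in 3 of 5 for Retn. Without the libraries whose sex-linked RNA went against the label, the 7 differences were 0.166 to 0.339.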

How the results depend on the processing

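The count of genes called between the sexes ran from 7 to 10 and, with Adipoq as covariate, from 6 to 8 over all alternatives, and the Lep difference with that covariate from 0.67 to 0.95 with every alternative past the threshold. Between generations the count fell from 3 to 1 with limma on the deposited VST and to 0 with limma on rank normal scores. With Ucp1 as a further covariate the sex difference turned to 0.138 for Fabp4 and to 0.0586 for Pparg (adjusted p = 0.209). The median correlation of Lep with the other genes was 0.302 in females and 0.526 in males, and that among the others 0.823 in females, 0.71 in males and 0.726 as Spearman rho. The cause of these changes was not tested. No paired analysis was possible because each animal gave 1 library and no number is shared between groups. Limits: block and wave are not stated in the labels, expected counts carry an estimation error that was not modelled, and levels of Adrb3 rest on few counts in some mice.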

Other observations

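Ucp1, which marks brown adipocytes, was near 0 in most mice and very high in a few, and 9 of the 10 genes followed it while Lep did not. On the score after sex and generation, r with Ucp1 was 0.679 for Adrb3, 0.671 for Pck1, 0.621 for Fabp4, 0.56 for Pparg, 0.538 for Plin1, 0.522 for Cfd, 0.482 for Retn, 0.478 for Cidec and 0.45 for Adipoq, and 0.00305 for Lep. By rank the values were lower, from 0.338 for Pparg to 0.48 for Pck1, and 0.026 for Lep.

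At a given level of Adipoq, Lep and Cidec had r = 0.493 in males and -0.0665 in females, and Lep and Pparg 0.151 and -0.122. Both differences were not tested. For Lep and Adrb3 the values were -0.576 and -0.497, and for Lep and Pck1 -0.413 and -0.534.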
